A study of Homo sapiens with 6 samples.

Results

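The ABC transporters are a family of membrane proteins that spend ATP to move drugs, lipids, peptides, haem and other cargo across membranes. In the count table, 43 protein-coding genes of 32078 named genes belong to this family by their symbol, the letters ABC followed by a subfamily letter from A to G and a number. The family's pseudogene rows were left out, and family genes without a row in the table were not analysed here. The counts come from PANC-1, an established line from a human pancreatic ductal carcinoma. The 3 control libraries are labelled as untreated PANC-1. The 3 EV libraries are labelled as PANC-1 treated with extracellular vesicles (EVs) shed by cancer-associated fibroblasts, the activated fibroblasts around a carcinoma. No genetic change is labelled, the vesicle dose and time are not stated in the sources used here, and the extraction text mentions vesicle treatment for every library, so the groups rest on titles and treatment labels. The comparison asks which transcripts of the family differ between cells with and without vesicle treatment. Replicates carry no label of a separate culture, so the tests weigh differences only against library-to-library spread, part of which could be technical.

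Most ABC proteins pair membrane-spanning domains with cassettes that bind and split ATP. Drug exporters such as the multidrug resistance proteins of the ABCC subfamily pump conjugated drugs and metabolites out of cells. ABCA1 and the ABCG sterol exporters load cholesterol and phospholipids onto acceptor particles under the control of the sterol-sensing liver X receptors (LXRs). Other members act inside cells, in mitochondria, lysosomes and peroxisomes, and ABCE1 and the ABCF proteins lack membrane domains and work on ribosomes.

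Library totals were 21669757 to 27535620 counts. Keratins of the labelled carcinoma were abundant, with KRT8 at 3063 ± 196 CPM (scaled counts per 1000000; SD, n = 3) in controls and 3382 ± 181 in the EV libraries, whereas EPCAM and CDH1 had 0 counts in all 6 libraries. Of the epithelial markers tested, MUC1 (log2 fold change -1.35), KRT19 (-0.48) and SOX9 (-0.42) fell in the EV libraries, and the part of this in the results on the transporters was not tested. The 13 fibroblast markers in the table summed to 415 to 448 CPM in controls and 403 to 445 CPM in the EV libraries, and DCN, LUM, THY1 and POSTN were at 0 counts throughout. The sum holds opposite changes: of 6 fibroblast markers tested, COL1A2 rose (log2 fold change 0.71, adjusted p = 3.72e-07), and COL6A3 (-0.61, adjusted p = 3.88e-07) and ACTA2 (-0.91, adjusted p = 0.000233) fell. The part of these in the results on the transporters was not tested. The 8 immune and endothelial markers in the table, of 10 listed, summed to 5.59 to 6.38 CPM in controls and 5.71 to 7.10 CPM in the EV libraries. Only 4 of 11 listed acinar, endocrine and hepatic markers were in the table, and these stayed at or under 0.220 CPM. Less RNA of a gene per cell and fewer cells that express it cannot be told apart in such bulk libraries.

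The deposited counts bear on transcript level only, and the sequence just before each start site is shown for members that carry the results below. ABCA2, ABCA3, ABCC4 and ABCD4 differed between the groups and hold the antioxidant element, TGACNNNGC, in these 200 bases. ABCA1 and ABCG4 are the sterol exporters with the largest differences in either direction. The sequences are from RefSeq on GRCh38.p14, read 5′ to 3′ toward the gene, and capitals mark the antioxidant element in the first 4, the E-box CACGTG in ABCA1 and the GC box GGGCGG in ABCG4, on either strand.
ABCA2, chr9:137028923-137029122, minus strand: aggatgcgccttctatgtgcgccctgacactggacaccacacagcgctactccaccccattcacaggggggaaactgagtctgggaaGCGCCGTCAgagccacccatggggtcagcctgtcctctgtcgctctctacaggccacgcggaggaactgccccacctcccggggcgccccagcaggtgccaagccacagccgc
ABCA3, chr16:2340729-2340928, minus strand: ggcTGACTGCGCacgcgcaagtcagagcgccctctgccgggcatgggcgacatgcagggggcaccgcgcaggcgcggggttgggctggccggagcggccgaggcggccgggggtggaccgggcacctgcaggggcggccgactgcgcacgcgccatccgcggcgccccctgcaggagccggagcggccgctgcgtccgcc
ABCC4, chr13:95301452-95301651, minus strand: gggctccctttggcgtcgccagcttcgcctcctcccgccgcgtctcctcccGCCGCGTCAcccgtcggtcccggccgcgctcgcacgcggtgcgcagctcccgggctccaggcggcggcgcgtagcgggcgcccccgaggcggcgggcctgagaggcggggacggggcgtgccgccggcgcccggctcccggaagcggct
ABCD4, chr14:74302935-74303134, minus strand: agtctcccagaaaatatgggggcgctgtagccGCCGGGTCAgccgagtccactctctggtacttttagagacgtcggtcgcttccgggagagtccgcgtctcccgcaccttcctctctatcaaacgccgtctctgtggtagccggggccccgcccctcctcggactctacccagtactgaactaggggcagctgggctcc
ABCA1, chr9:104928156-104928355, minus strand: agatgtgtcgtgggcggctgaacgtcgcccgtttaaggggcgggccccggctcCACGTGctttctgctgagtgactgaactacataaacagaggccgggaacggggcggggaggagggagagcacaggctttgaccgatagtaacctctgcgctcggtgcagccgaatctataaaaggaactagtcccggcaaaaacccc
ABCG4, chr11:119148852-119149051, plus strand: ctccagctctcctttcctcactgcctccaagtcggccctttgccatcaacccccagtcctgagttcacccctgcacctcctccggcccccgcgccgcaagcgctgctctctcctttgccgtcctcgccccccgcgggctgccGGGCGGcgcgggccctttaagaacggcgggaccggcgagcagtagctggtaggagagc

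RefSeq windows of 250 bases before to 50 bases after the start were found for 34 of the 43 members, 13 of them among the 15 members that differed. Motifs were searched on both strands as exact letters. The antioxidant element TGACNNNGC was in 7 of 34 member windows, against 13.6% of all 27305 windows. Beside those shown, these were ABCA5, which differed, and ABCF1 and ABCB6, which did not differ or were not tested. Of the 13 windows of members that differed, 5 held it, and those of ABCB9, ABCB10 and ABCE1 did not. The GC box GGGCGG was in 18 of 34 member windows, against 44.6% of all windows. Of the members shown, ABCA1, ABCA3 and ABCD4 hold it as well as ABCG4, and it is marked only in ABCG4. The E-box CACGTG was in the windows of ABCA1, ABCA9, ABCB6 and ABCF1, against 7.43% of all windows, and it always contains the hypoxia element ACGTG, which was in 8 of 34 member windows and 21.6% of all. TGANTCA, a loose form of the AP-1 site with any base in the middle, was in the windows of ABCA5 (as TGAGTCA) and ABCB11 (as TGAATCA). It was in 7.76% of all windows. The amino acid response element TGATGNAAT (1.02% of all) was in no member window. The same held for an exact repeat of AGGTCA with 4 bases between (0.0183% of all), also with the first base of each repeat free (0.0696% of all). LXRs bind looser forms of this repeat as well, which were not searched, so these counts do not speak to LXR elements in a window. A match is a run of letters in this window and no more.

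Of the 43 members, 27 passed the count filter. Among these, 11 rose and 4 fell in the EV libraries at an edgeR adjusted p under 0.05. Of all 14670 tested genes, 40.9% were called, 20.2% higher and 20.7% lower, against 55.6%, 40.7% and 14.8% of the tested members. The median log2 fold change of the tested members was 0.08, beside -0.007 over all tested genes. Called changes ran from -0.83 (ABCC3) to 1.82 (ABCG4), and ABCG4 alone passed 2-fold. In all 15 called members, and in no other tested member, the CPM ranges of the groups did not overlap, which held for 50.6% of all tested genes. ABCG4 reached the filter level in 3 EV and 2 control libraries, ABCA6 in 2 and 3 and ABCG2 in 2 and 1, so these passed partly through one group, while the other 24 reached it in every library. All counts of the 43 members came to 1215.6 to 1339.7 per 1000000 counts in controls and 1435.2 to 1519.6 in the EV libraries, so the EV libraries held more family counts in sum, without overlap. The 5 members with the most counts in a library held 47.7% to 48.6% of its sum. A few members therefore weigh heavily in the sum, though the others together held more, and the sum is not corrected for gene length.

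**Figure D1:**
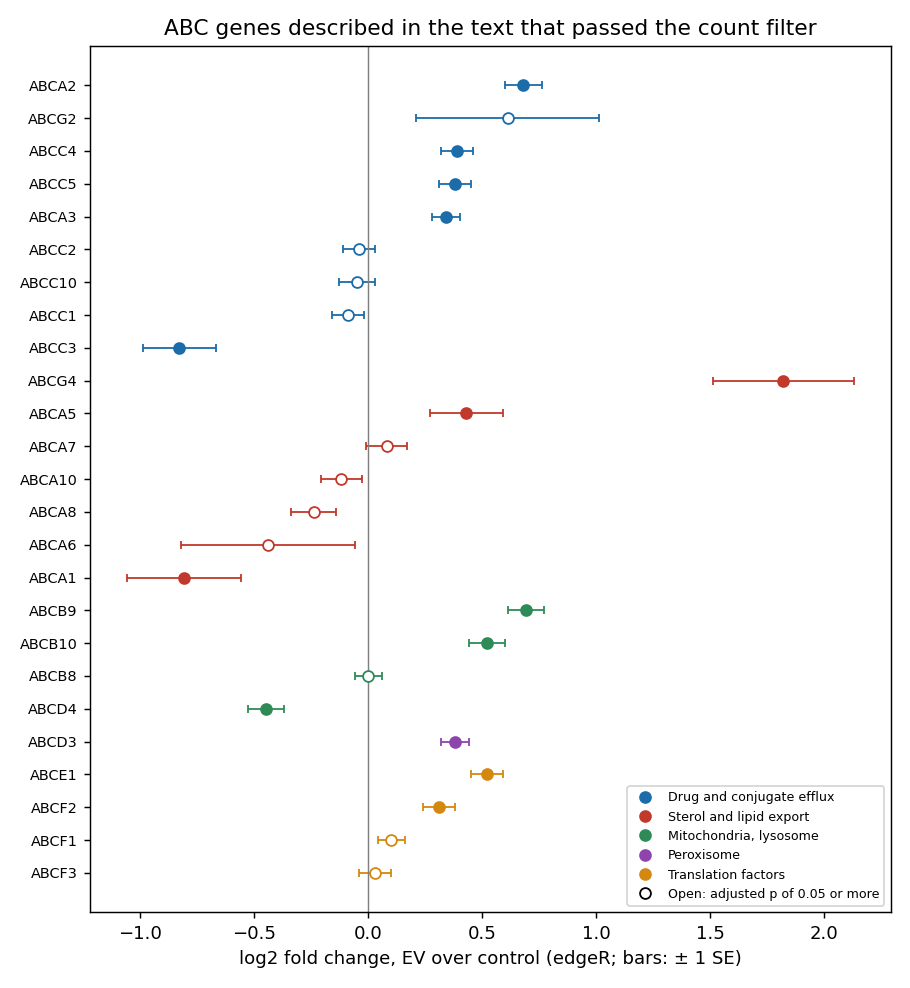
Log2 fold change (EV over control, horizontal axis) of ABC genes that passed the count filter and are described here, coloured by role, with bars of 1 SE on each side and open points for genes that did not pass the test. ABCG4 stands at 1.82, and ABCC3 and ABCA1 are the lowest points.

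Drug and conjugate exporters differed among themselves. Of the 9 tested here, 4 rose (ABCA2, ABCC4, ABCC5 and ABCA3), ABCC3 fell, and the abundant exporters ABCC1 and ABCC2 did not pass the test. ABCA2 and ABCA3, which are lipid transporters, are counted here for their link to drug resistance. This count and those of the other roles below can be read against the 40.9% of all tested genes called. ABCA2, a lysosomal lipid transporter that has been linked to drug resistance, was at 64.4, 51.6 and 65.4 CPM in controls and 98.2, 89.1 and 103 CPM in the EV libraries. Every EV library was above every control (log2 fold change 0.68 ± 0.08, SE, adjusted p = 2.4e-06). ABCC3, an exporter of bile salts and glucuronides, was at 4.63, 5.30 and 6.27 CPM in controls and 2.81, 2.70 and 3.62 CPM in the EV libraries. It was lower in every EV library (-0.83 ± 0.16, adjusted p = 0.00046), at 59 to 171 raw counts per library.

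ABCC4 and ABCC5, which export cyclic nucleotides and nucleotide analogues, rose to a like degree. ABCC4 went from 26.7 ± 1.37 to 35.0 ± 1.58 CPM (log2 fold change 0.39 ± 0.07, adjusted p = 0.000373). ABCC5 went from 50.4 ± 4.49 to 65.5 ± 2.53 CPM (0.38 ± 0.07, adjusted p = 0.000295). ABCA3, the phospholipid transporter of surfactant storage bodies, also studied in drug resistance, was the member with the most counts and rose from 186 ± 15.9 to 236 ± 9.14 CPM (0.34 ± 0.06, adjusted p = 0.000313). Within each library, the count of ABCC4 over that of ABCC3 was 5.97, 4.74 and 4.36 in controls and 11.87, 12.93 and 10.10 in the EV libraries. Such a ratio of counts does not depend on how libraries were scaled, and the pairs compared in this way were picked with their values in view. For ABCC5 over ABCC1 the ratio was 0.69 to 0.77 in controls and 0.96 to 1.03 in the EV libraries.

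ABCC1, the first multidrug resistance protein of its subfamily, was at 68.5, 65.2 and 75.4 CPM in controls and 61.5, 63.7 and 71.0 CPM in the EV libraries. The groups overlapped, and the approximate 95% interval of its log2 fold change was -0.23 to 0.05 (adjusted p = 0.319). ABCC2, an exporter of conjugates at the apical membrane, was at 97.6, 88.4 and 104 CPM in controls and 88.6, 95.8 and 98.0 CPM in the EV libraries. Its interval was -0.17 to 0.09 (adjusted p = 0.679). ABCC10 was at 31.7 ± 2.81 and 30.6 ± 2.84 CPM (interval -0.22 to 0.12). ABCG2, the breast cancer resistance protein, was near the limit of detection, with 7, 9 and 13 counts in controls and 19, 15 and 8 in the EV libraries. At this depth no difference was detectable for ABCG2 (0.61 ± 0.40, interval -0.18 to 1.40, adjusted p = 0.239). The other 3 members of this group were not tested: ABCC6 had 0 to 6 counts, ABCC11 1 to 10, and ABCC12 had 0 counts in all libraries.

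**Figure D2:**
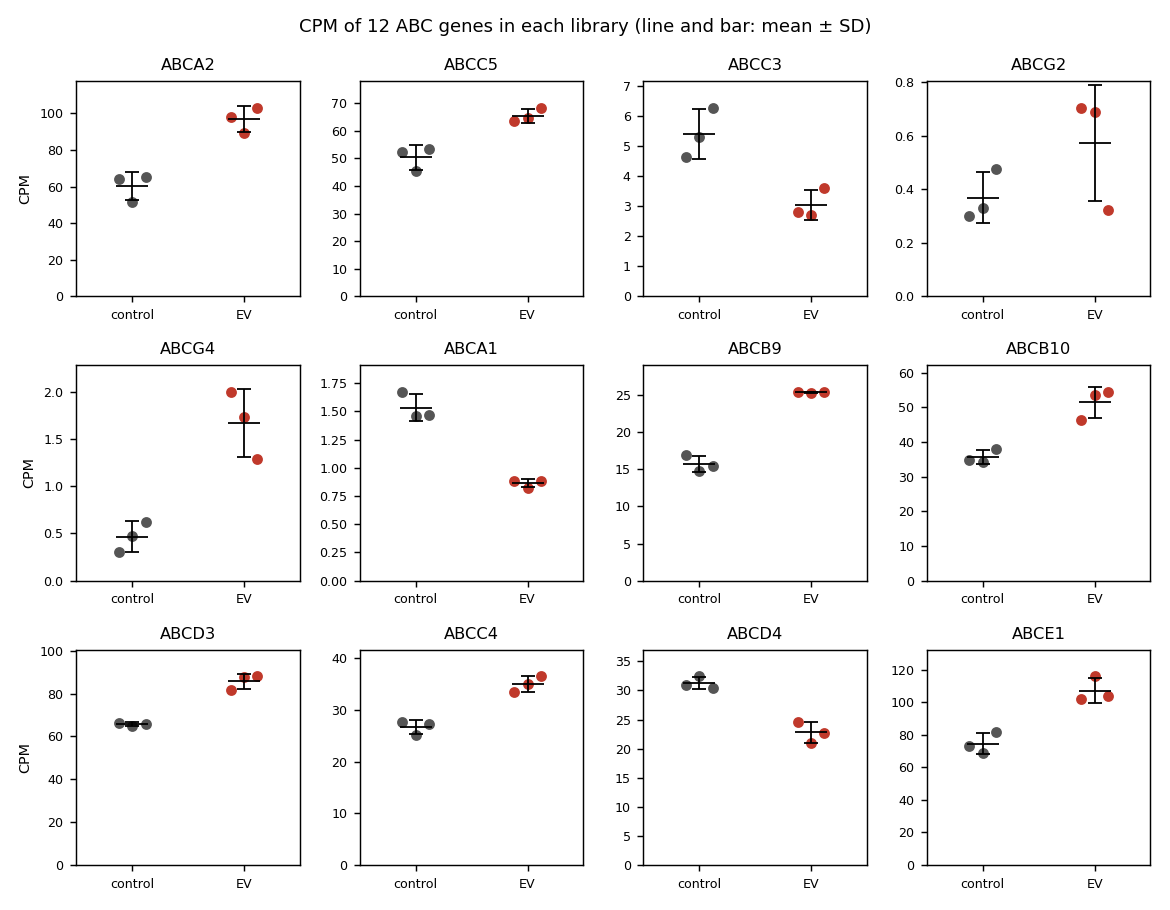
CPM (vertical axis, from 0) of 12 ABC genes in each control and EV library, with the mean as a line and the SD as a bar (n = 3 each). For ABCG2 the EV library at 0.321 CPM lies within the range of the controls, while the other 11 genes show no overlap.

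Among the sterol and phospholipid exporters, of which 7 of 16 were tested, ABCG4 and ABCA5 rose and ABCA1 fell, all from low levels. ABCG4, a transporter that exports sterols, had 7, 13 and 17 counts in controls and 54, 38 and 32 in the EV libraries. That is 0.300, 0.475 and 0.623 CPM against 2.00, 1.74 and 1.29 CPM, with every EV library above every control. The change was 3.52-fold (log2 fold change 1.82 ± 0.31, adjusted p = 0.000113). ABCA1, the exporter of cholesterol and phospholipid to apolipoprotein A-I, had 39, 40 and 40 counts in controls and 24, 18 and 22 in the EV libraries. It was at 1.67, 1.46 and 1.47 CPM against 0.887, 0.825 and 0.884 CPM, and all EV libraries were lower (-0.81 ± 0.25, adjusted p = 0.0123). In the authors' deposited table, whose fold changes are control over EV, ABCG4 is at -1.83 and ABCA1 at 0.80, and ABCG4 is the one member that the authors' deposited table marks. Its mark there is Down, opposite in word to the direction by sample labels that is used here, though the group means in the authors' deposited table, 0.92 for EV and -0.54 for control on the log2 scale, have EV higher.

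ABCG1, the closest relative of ABCG4 in sterol export, was below the filter, with 11, 12 and 0 counts in controls and 9, 5 and 6 in the EV libraries. Its values do not separate the groups. The intestinal and biliary sterol exporter pair had 1 count in all for ABCG5, and 5 counts for ABCG8, all in EV replicate 2. ABCA7, a phospholipid transporter, was at 23.3 ± 0.656 and 24.6 ± 3.18 CPM and did not pass (adjusted p = 0.519).

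ABCA8, ABCA9, ABCA6, ABCA10 and ABCA5 lie next to each other in that order on chromosome 17 in RefSeq on GRCh38.p14, and their levels were far apart. ABCA10 was at 104 ± 18.8 CPM in controls and 95.3 ± 4.60 CPM in the EV libraries. ABCA8 was at 16.8 ± 0.940 and 14.1 ± 1.49 CPM. ABCA5 was at 2.65 ± 0.219 and 3.59 ± 0.237 CPM, ABCA6 had 6 to 20 counts per library, and ABCA9 had 1 count in total. Only ABCA5 of these passed the test (log2 fold change 0.43 ± 0.16, adjusted p = 0.0355), and the call was lost without control replicate 1, control replicate 2, EV replicate 1 or EV replicate 2 (adjusted p = 0.0935, 0.0919, 0.0757 and 0.103), with the replicate number as a block (adjusted p = 0.0512) and with DESeq2 (adjusted p = 0.0901). ABCA8 missed the threshold (-0.24 ± 0.10, adjusted p = 0.0505) and passed without control replicate 2 or EV replicate 1 (adjusted p = 0.038 and 0.0206), with the block (adjusted p = 0.0456), with upper-quartile scaling (adjusted p = 0.0376) and with a filter of 1 CPM in 3 libraries (adjusted p = 0.0397). ABCA10 spread from 84.4 to 122 CPM among the controls and passed only without control replicate 1 (-0.25, adjusted p = 0.0126). ABCA10 and ABCA5 share 318 exon bases on the same strand in GENCODE v29, so reads there cannot be told apart. ABCA4, ABCA12 and ABCB4 stayed at 8 counts or fewer in each library, and ABCA13 and ABCB11, the bile salt export pump, had 0 counts in all 6.

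Among transporters of mitochondria and lysosomes, ABCB9 and ABCB10 rose, ABCD4 fell, and ABCB8 did not pass the test. ABCB9, a lysosomal peptide transporter related to the TAP proteins, was at 16.9, 14.8 and 15.5 CPM in controls and 25.4, 25.3 and 25.4 CPM in the EV libraries. Every EV library was above every control (log2 fold change 0.69 ± 0.08, adjusted p = 2.59e-06). Exons of ABCB9 overlap those of AC026362.1 (2752 bases), ARL6IP4 and OGFOD2 on the opposite strand in GENCODE v29. The sources used here do not say if strand was used in counting, though the library kit marks it. ARL6IP4 and OGFOD2 were at 0.220 and 0.214 CPM in controls and 0.153 and 0.285 CPM in the EV libraries. Such low values do not show how reads in the overlap were assigned. ABCB10, an inner-membrane protein needed for haem synthesis, was at 34.9, 34.3 and 38.1 CPM in controls and 46.3, 53.7 and 54.4 CPM in the EV libraries (0.52 ± 0.08, adjusted p = 2.1e-05). It was higher in every EV library. The mitochondrial transporter ABCB8 was at 55.7 ± 1.52 and 55.7 ± 2.79 CPM (interval -0.12 to 0.13). ABCD4, which acts in the release of vitamin B12 from lysosomes, fell from 31.3 ± 1.03 to 22.8 ± 1.80 CPM (-0.45 ± 0.08, adjusted p = 0.000159). It shares 624 exon bases on the same strand with AC005519.1, where reads cannot be assigned to one of the genes. ABCB6, of the same group, had 3 to 15 counts per library and was not tested. It shares 2864 exon bases on the same strand with the coding gene AC068946.2 in GENCODE v29. Reads there cannot be assigned to one of the genes, so these counts alone do not show a low level of ABCB6.

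A peroxisomal importer of fatty acids rose. ABCD3, which brings in branched-chain and dicarboxylic fatty acids, rose from 65.8 ± 0.840 to 85.7 ± 3.61 CPM (log2 fold change 0.38 ± 0.06, adjusted p = 5.37e-05). The libraries were at 66.5, 64.8 and 66.0 CPM in controls and 81.6, 87.7 and 88.0 CPM with vesicles, without overlap. ABCD2 had 0 counts in all libraries, which allows up to 0.109 to 0.139 CPM per library, for counting error only, since reads of PCR copies are not independent molecules.

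Of the 4 members that work on ribosomes, 2 rose. ABCE1, which splits ribosomes after termination, was at 73.0, 68.9 and 81.7 CPM in controls and 102, 116 and 104 CPM in the EV libraries. All EV libraries were higher (log2 fold change 0.52 ± 0.07, adjusted p = 1.05e-05). Of the genes that overlap ABCE1 on the opposite strand, OTUD4 fell (-0.18 ± 0.07, adjusted p = 0.0385) and ANAPC10 was at 1.91 and 1.85 CPM. ABCF2 rose from 32.1 ± 1.02 to 39.7 ± 2.37 CPM (0.31 ± 0.07, adjusted p = 0.00199). ABCF2 shares 1914 exon bases on the same strand with the coding gene AC021097.2 in GENCODE v29, so reads there cannot be assigned to one of the genes. ABCF1, a partner of the initiation factor eIF2, was at 154 ± 7.78 and 165 ± 7.76 CPM (interval -0.02 to 0.22, adjusted p = 0.208), and ABCF3 was at 82.4 ± 6.36 and 84.3 ± 4.30 CPM (adjusted p = 0.721). The regulators of potassium channels ABCC8 and ABCC9 had 2 counts each in all libraries together.

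Levels of different genes were compared as CPM per kilobase of exon. In controls ABCF1 was highest at 34.0 ± 1.72 CPM per kb, then ABCA3 at 23.8 ± 2.04 and ABCF3 at 15.8 ± 1.22, each apart from the next. ABCA10, ABCC2 and ABCE1 followed at 12.3 ± 2.23, 12.3 ± 1.01 and 11.9 ± 1.04 CPM per kb, with overlapping ranges. ABCC1, ABCD3 and ABCB10 followed lower, at 9.20, 8.67 and 8.40 CPM per kb, each overlapping its neighbour. At the low end were ABCG4 at 0.0743 ± 0.0258, ABCG2 at 0.0731 ± 0.0188 and ABCA6 at 0.0435 ± 0.0149 CPM per kb, also overlapping. In the EV libraries ABCE1 came next after ABCA3 at 17.1 ± 1.19 CPM per kb, with a range that overlapped that of ABCF3 (16.2 ± 0.826), and ABCG4 ranked above both ABCG2 and ABCA1 at 0.267 ± 0.0574.

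**Figure D3:**
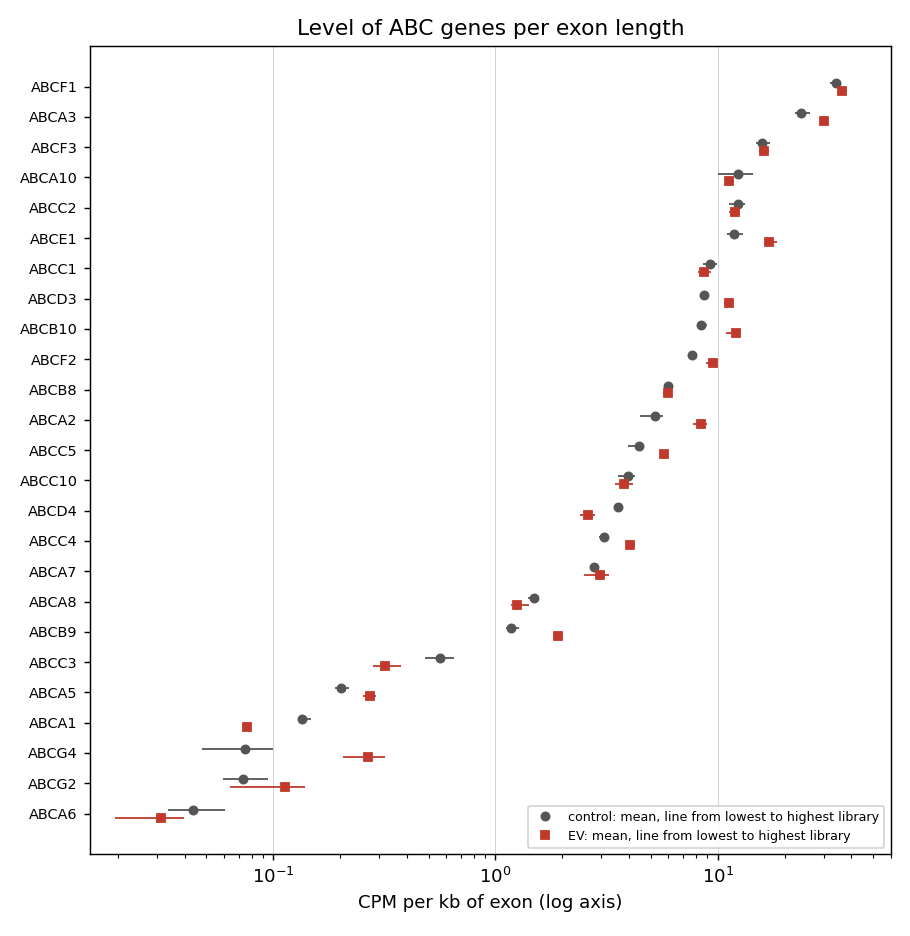
Level of the tested ABC genes described here in CPM per kilobase of exon (log axis), in the order of the control means, with a line from the lowest to the highest library of each group. Levels run from ABCF1 at 34.0 to ABCA6 at 0.0435 CPM per kb in controls.

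Genes that work with these transporters were followed in 6 lists, whose counts can be read against the 40.9% of all tested genes called. In sterol sensing and export, 5 of 21 tested genes rose and 8 fell. RXRB, a partner of the LXRs, fell from 66.2 ± 2.64 to 41.8 ± 2.44 CPM (log2 fold change -0.66 ± 0.07, adjusted p = 2.8e-07). INSIG1, which holds back sterol synthesis, rose (0.56 ± 0.07), and the phospholipid transfer protein gene PLTP (-0.50 ± 0.07) and the lysosomal sterol exporter gene NPC1 (-0.42 ± 0.06) fell. The receptor genes did not move one way: NR1H3 (-0.54 ± 0.15, adjusted p = 0.00691) and NR1H2 (-0.27 ± 0.06, adjusted p = 0.00258), which encode the LXRs, fell with RXRB, while their other partner gene RXRA rose (0.28 ± 0.06, adjusted p = 0.00133). MYLIP (0.46 ± 0.16, adjusted p = 0.0251), LPCAT3 (0.36 ± 0.11, adjusted p = 0.0115) and the sterol carrier gene NPC2 (0.20 ± 0.07, adjusted p = 0.0226) also rose. SREBF1 (-0.33 ± 0.07) and NCOR1 (-0.24 ± 0.06) were among the genes that fell. These genes, from NR1H3 on, were named with their values in view. Without control replicate 2, EV replicate 1 or EV replicate 2, the number of higher genes of this list was 3, 2 and 2.

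In drug metabolism and uptake, 6 of 22 tested genes rose and 6 fell. CYP1B1, an oxidase of the dioxin receptor response, fell from 5.53 ± 0.911 to 1.64 ± 0.386 CPM (log2 fold change -1.76 ± 0.19, adjusted p = 6.59e-07), whereas CYP1A1 of the same response rose from 1.09 ± 0.0411 to 2.41 ± 0.458 CPM (1.15 ± 0.22, adjusted p = 0.00039). SLC29A1, the nucleoside carrier that takes up gemcitabine, rose from 109 ± 5.85 to 140 ± 4.23 CPM (0.36 ± 0.06, adjusted p = 8.37e-05), and the organic anion carrier gene SLCO4A1 rose too (0.33 ± 0.06).

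Of 20 peroxisomal partner genes, 4 rose, 0 fell and 16 did not pass in the edgeR test. At an unadjusted p under 0.05 also 0 were lower, and DESeq2 and limma-voom each called 0 lower at an adjusted p under 0.05, while 1 was called lower without EV replicate 1. ACSL1 (log2 fold change 0.40 ± 0.07), ACSL4 (0.20 ± 0.08), CROT (0.66 ± 0.13) and SCP2 (0.24 ± 0.07), which activate or carry fatty acids, were the 4. Of 24 haem and iron-sulfur genes 10 rose and 4 fell. CPOX, an enzyme of haem synthesis, rose from 22.9 ± 2.79 to 36.1 ± 1.82 CPM (0.66 ± 0.09, adjusted p = 8.53e-06), and the iron-sulfur assembly genes CIAPIN1 (0.36 ± 0.06) and GLRX5 (0.27 ± 0.06) rose, while ALAS1, the first enzyme of haem synthesis, fell (-0.31 ± 0.06, adjusted p = 0.000264). Without control replicate 1, EV replicate 1 or EV replicate 2, 5 genes of this list were higher in each case.

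Of 22 genes of ribosome recycling and eIF2 control, 4 rose and 3 fell. EIF2S1, the alpha subunit of eIF2, rose from 111 ± 5.34 to 155 ± 0.384 CPM (log2 fold change 0.48 ± 0.06), EIF2B5 rose (0.25 ± 0.06), and EIF1 (-0.49 ± 0.06) and EIF2S2 (-0.33 ± 0.06) fell. Among 8 tested partners of the channel members and of TAP, 4 rose, namely SLC9A3R1, a scaffold for membrane transporters (0.61 ± 0.06, adjusted p = 2e-07), the anion exchanger gene SLC26A6 (0.39 ± 0.08) and the peptide transporter genes TAP1 (0.30 ± 0.07) and TAP2 (0.29 ± 0.10). ERAP1, a peptidase of antigen processing, fell (-0.26 ± 0.09, adjusted p = 0.029), a call lost without control replicate 1, EV replicate 1 or EV replicate 3, with DESeq2 and with no count filter, and it was named with its value in view.

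**Figure D4:**
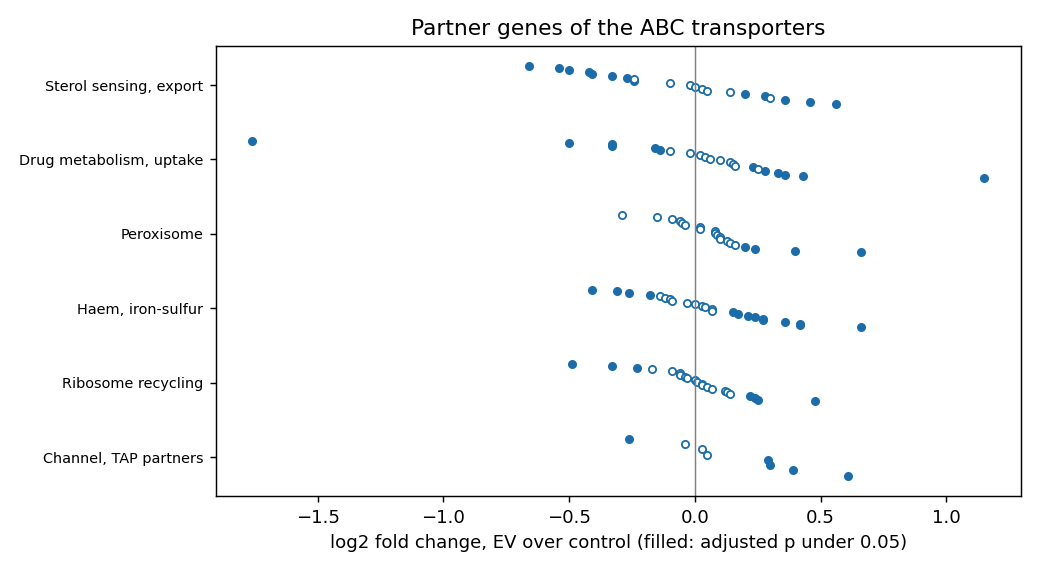
Log2 fold change (EV over control, horizontal axis) of the tested genes of 6 partner lists, 1 point per gene, filled where the adjusted p was under 0.05. CYP1B1 at -1.76 and CYP1A1 at 1.15 are the outermost points, both in the drug metabolism list.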

How the data were processed

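The authors deposited raw counts per gene, from poly(A)-selected libraries per the labels' protocols, for 32453 features in 6 libraries. Per the submitters' processing notes, TopHat, RSEM and the hg19 build were used, with no roles or versions. Features with only an assembly number (375, at 0.099% to 0.134% of a library's counts) were left out. Their comparison, control over EV, was deposited as log2 values with p-values and q-values. Counts were tested with edgeR 4.0.16 (R 4.3.3; TMM, filterByExpr, prior count 0.125, quasi-likelihood test, Benjamini-Hochberg over all tested genes, called under 0.05), without a replicate block. Fold changes are EV over control. CPM use TMM sizes, and exon lengths are unions from GENCODE v29 on GRCh38, used as a property. Replicate pairs differed by more than sampling noise (chi-square per degree of freedom 4.83 to 9.73). The test was checked on simulated counts. Per-library values went to called members with a log2 fold change of at least 0.5 in size and to ABCC1, ABCC2, ABCC3, ABCG2, ABCA1, ABCG1 and ABCG4, and up to 4 called genes per partner list were named. Per-library values of ABCD3 and further sterol and channel partner genes were added with their values in view. The members and lists were chosen with earlier results of these data known. Alternatives were other scalings, filters and thresholds, DESeq2 1.42.0, limma-voom 3.58.1, the replicate block and each library left out. Protein sequences were not used here. Some members and listed genes count in the totals but their own values are not reported here.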

Additional observations from a re-analysis of the deposited data

How the results depend on the processing

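Of the 15 called members, 13 kept their direction and their call in all 14 other settings at a threshold of 0.05, and ABCA5 kept the direction only. With 1 library left out, 10 to 11 members were higher and 3 to 5 lower, of 4756 to 5612 called genes. Other settings gave 10 to 11 higher and 2 to 5 lower, the 2 at an adjusted p under 0.01, where 4093 genes were called. Scaling moved the median log2 fold change of all tested genes between -0.027 and 0.004.

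Some members near 0 that were not called turned sign, while ABCA7, ABCC1 and ABCF1 kept theirs, and the cause was not tested. With 1 library left out, ABCB8 ran from -0.02 (without control replicate 2 or EV replicate 1) to 0.04, ABCC2 from -0.10 to 0.02, ABCC10 from -0.11 to 0.02, ABCA10 from -0.25 to 0.01 and ABCF3 from -0.01 to 0.10. ABCB8 was also at -0.02 with upper-quartile scaling and -0.01 with a filter of 1 CPM in 3 libraries.

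With the replicate number as a block, 5743 genes were called, 10 members higher and 4 lower. ABCA5 lost its call and ABCA8 gained one. Deviations of same-numbered libraries correlated at -0.021, -0.009 and -0.011, beside 0.072 to 0.074 for the highest other pairings. With 3 libraries per group, this cannot show whether same-numbered libraries shared a culture or day. Of 180 counts of partner genes under other settings, an alternative added after the data were seen, 165 were within 1.5 times the main count. Members under about 10 counts are limited by depth.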

Other observations

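Rows of ABC pseudogenes, left out of the family above, held few counts. ABCA17P had 26, 39 and 43 counts in controls and 28, 25 and 29 in the EV libraries. ABCC6P1 had 6 to 16 counts and ABCC6P2 had 3 to 15 counts per library, more in total than their parent gene ABCC6, whose reads are hard to separate from theirs. Among the genes tested for markers, MUC1, a membrane mucin, fell from 19.9 ± 0.846 to 7.81 ± 1.20 CPM (SD, n = 3 each; log2 fold change -1.35 ± 0.11, edgeR adjusted p = 1.89e-08), lower in 3 of 3 EV libraries than in any control.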
